A study of Mus musculus with 6 samples.

Results

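The genes described here are 32 transcripts that follow low oxygen and sugar use, chosen by gene symbol from a table of 55487 genes. They are known targets of hypoxia-inducible factor (HIF), glucose and lactate transporters, and glycolysis genes taken without a contrast of muscle and common isoenzymes. A share of muscle transcripts in them is not excluded by this choice. All 32 were found in the table and all 32 passed the filter on low counts. Cartilaginous tissue of the knee joint was taken from mice at postnatal day 6, and poly(A) RNA was sequenced from 3 WT libraries and from 3 *Hbb*-cKO libraries, in which the adult β-globin genes were deleted conditionally in chondrocytes. In the study the floxed mice were on a C57BL/6J background, both sexes were used, and Cre was driven by the Prx1 promoter or, inducibly by tamoxifen, by that of *Col2a1*, while the driver in these libraries and the number of mice in each of them are not stated. The study asked elsewhere whether loss of hemoglobin leaves chondrocytes short of oxygen, and here these transcripts are compared between the groups.

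Cartilage has no blood vessels, and chondrocytes live at low oxygen and draw most of their energy from glycolysis. When oxygen is scarce, the prolyl hydroxylases that mark HIF α subunits for destruction slow down, and the stabilized subunits pair with ARNT and bind promoters and enhancers that hold the core letters RCGTG. The induced genes bring in glucose, turn it to lactate, spare mitochondria, modify collagen and signal to vessels. Protein stability, and not transcript level, is the main switch of the α subunits, so that the transcripts of the targets are the usual readout.

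No member passed the test between *Hbb*-cKO and WT. Of the 32 genes, 0 were called by edgeR's quasi-likelihood test at an adjusted p of 0.05, where 0.105% of the 17175 genes tested were called, and 0 were called by DESeq2, which called 1.45%. At an unadjusted p under 0.05, 5 members differed (15.6%), 3 upward and 2 downward, beside 10.1% of all genes. The median log2 fold change of the members was 0.02, and that of all genes tested was -0.01. 19 members had a positive and 13 a negative value. The values ran from -0.31 for *Bnip3l* to 0.68 for *Adm*. The 95% interval lay within a 2-fold change in both directions for 28 of the 32 genes, and for 29 it excluded a 2-fold rise. Among the 17175 genes tested, these counts were 12903 and 15109. A rise of 1.5-fold lay outside the interval of 20 of the 32 members, beside 11733 of the 17175 genes.

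**Figure D1:**
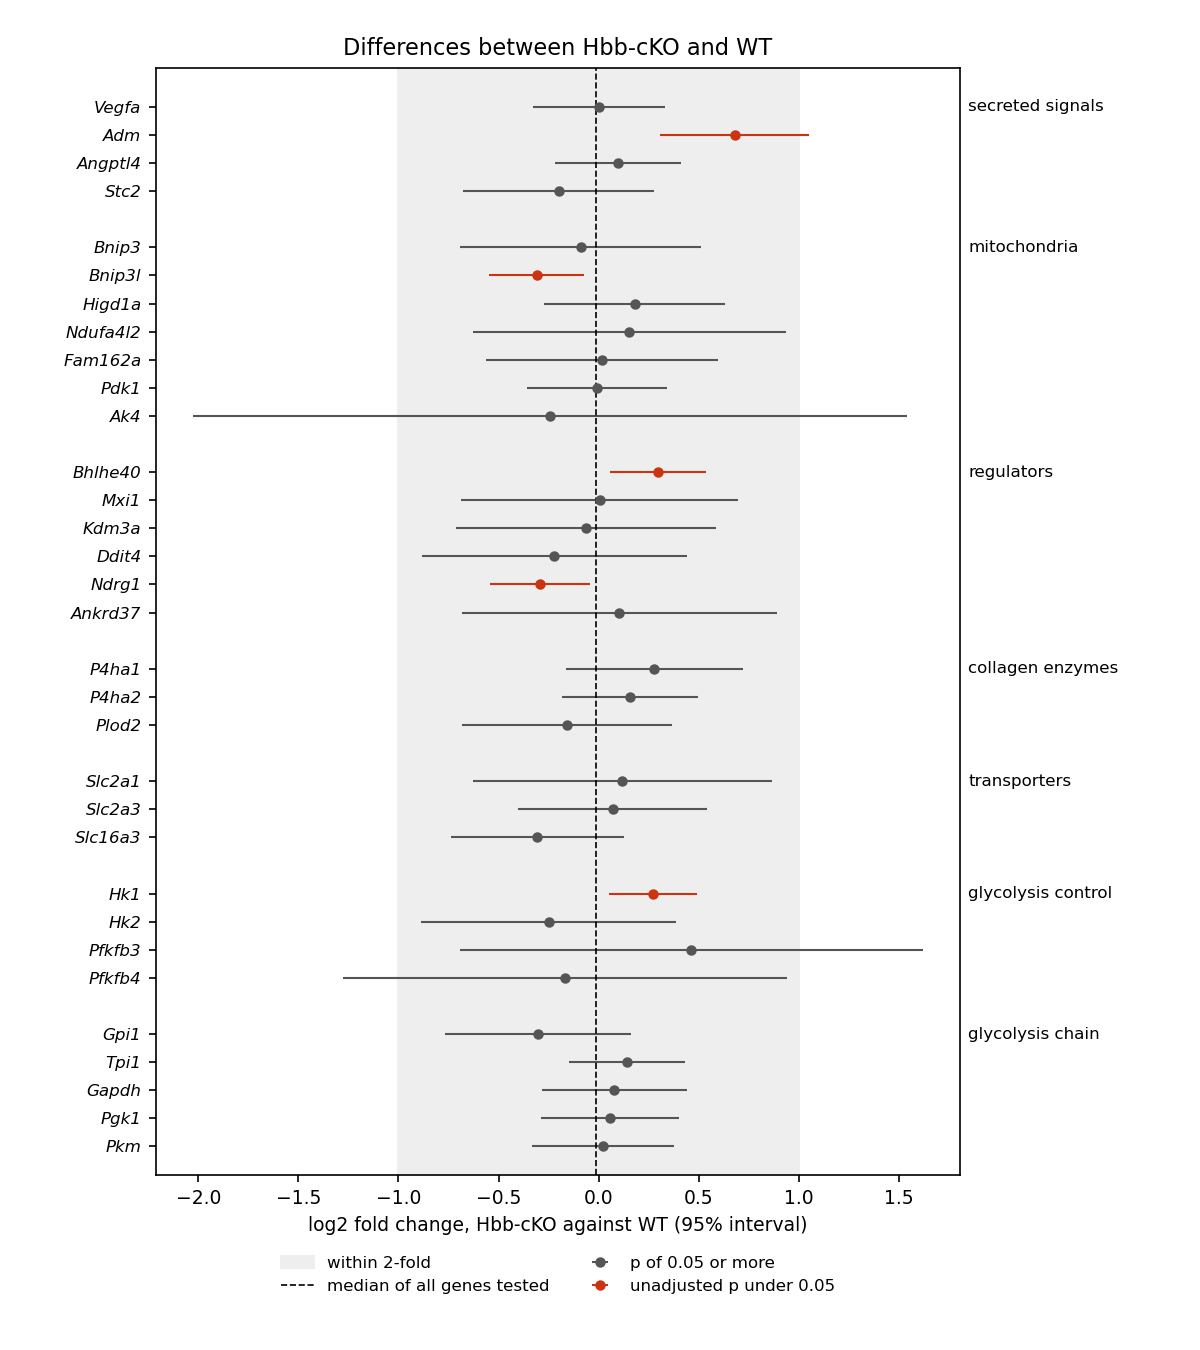
Log2 fold change of each member, *Hbb*-cKO against WT (x axis), with its 95% interval from edgeR over n = 3 libraries a group. Rows are genes grouped by role, grey shading marks changes within 2-fold, and the dashed line is the median of all genes tested (-0.01). Red points mark the 5 genes with an unadjusted p under 0.05, none of which passed after adjustment.

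The HIF core was searched for as ACGTG or GCGTG on either strand, with overlapping matches counted once, in RefSeq windows (GRCm38.p6) from 250 bases before to 50 bases after each start. 25 of the 32 members had a window, and *Angptl4*, *Bhlhe40*, *Bnip3l*, *Ndrg1*, *Ndufa4l2*, *Plod2* and *Slc2a3* had none. Where several windows were listed for a gene, the one nearest to its start in GENCODE M21 was taken. A match was found in 19 of the 25 member windows (76%), beside 47.4% of the 20977 genes for which 1 window was taken in the same way and 43.8% of all 32851 windows. At least 3 matches were found in 6 of the 25 (24%), beside 7.88% of these genes and 6.55% of all windows. The window of *Ankrd37* lies 5857 bases from its annotated start. The most were in the window of *Fam162a* with 6, followed by *Bnip3* and *P4ha2* with 4 each, of which 1 in *P4ha2* lies after the start. *Gpi1*, *Hk1*, *Mxi1*, *Pkm*, *Tpi1* and *Vegfa* had none in these windows, which leave distant enhancers out. The 250 bases before the start are shown for the richest 3 and for *Adm*, the member with the smallest p, each 5′ to 3′ on the gene's strand and with the matches in capitals. *Fam162a* lies on the minus strand (chr16:36071562-36071811), *Bnip3* on the minus strand (chr7:138909507-138909756), *P4ha2* on the plus strand (chr11:54100674-54100923, 829 bases from the start annotated for the gene in GENCODE M21) and *Adm* on the plus strand (chr7:110627407-110627656).
Fam162a: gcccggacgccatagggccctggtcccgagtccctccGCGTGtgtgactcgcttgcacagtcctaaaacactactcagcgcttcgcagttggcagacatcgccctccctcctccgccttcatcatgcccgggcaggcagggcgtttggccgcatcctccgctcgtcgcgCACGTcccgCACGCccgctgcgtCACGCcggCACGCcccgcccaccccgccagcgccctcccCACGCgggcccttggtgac
Bnip3: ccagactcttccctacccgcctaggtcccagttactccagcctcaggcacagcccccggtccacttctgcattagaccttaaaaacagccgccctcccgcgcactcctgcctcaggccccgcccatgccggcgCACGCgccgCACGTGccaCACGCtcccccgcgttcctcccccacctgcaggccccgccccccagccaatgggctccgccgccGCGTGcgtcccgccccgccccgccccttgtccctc
P4ha2: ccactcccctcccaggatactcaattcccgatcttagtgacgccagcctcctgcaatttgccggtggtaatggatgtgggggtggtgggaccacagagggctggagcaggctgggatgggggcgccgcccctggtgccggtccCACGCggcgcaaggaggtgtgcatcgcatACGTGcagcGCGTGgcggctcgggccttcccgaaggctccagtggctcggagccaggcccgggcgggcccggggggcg
Adm: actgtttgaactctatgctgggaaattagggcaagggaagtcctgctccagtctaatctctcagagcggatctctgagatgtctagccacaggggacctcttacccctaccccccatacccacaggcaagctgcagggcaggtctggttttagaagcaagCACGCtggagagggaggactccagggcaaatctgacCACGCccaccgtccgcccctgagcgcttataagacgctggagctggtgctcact

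The 6 members with 3 or more matches (*Ankrd37*, *Bnip3*, *Fam162a*, *Gapdh*, *P4ha1* and *P4ha2*) had a median log2 fold change of 0.09, between -0.09 and 0.28, and 0 of them reached an unadjusted p under 0.05. The value was positive in 5 of these 6, in all but *Bnip3*. For *Gapdh* this holds for the counts under its own name, and its sum with pseudogenes, described below, gave -0.28. The 13 members with 1 or 2 matches had a median of -0.06, with 5 positive, and the 6 without a match had a median of 0.01, also with 5 positive. Some members of each of these groups, such as *Fam162a*, *Pdk1* and *Vegfa*, changed sign under other settings. *Fam162a*, a mitochondrial protein with the most matches, stood at 69.2, 75.7 and 61.9 CPM (counts scaled to a fixed normalized library size) in WT and at 46.7, 97.0 and 65.4 CPM in *Hbb*-cKO. The *Hbb*-cKO libraries therefore held both the lowest and the highest value, and the log2 fold change was 0.02 (95% interval -0.56 to 0.60).

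The libraries themselves set the limits of the comparison. Total counts ran from 16544800 to 20969914. The summed CPM of the targeted genes *Hbb-bs* and *Hbb-bt* was 16811, 12449 and 6912 in WT and 4195, 5444 and 5014 in *Hbb*-cKO, lower in every *Hbb*-cKO library, with edgeR adjusted p-values of 0.218 and 0.241 (log2 fold changes -1.28 and -1.32) and a DESeq2 adjusted p of 0.002 for each. All 4 globin genes tested had log2 fold changes between -1.43 and -1.28 and were called lower by DESeq2, while edgeR called 0 of them. The summed CPM of 7 erythroid markers was 524, 312 and 200 in WT and 138, 125 and 150 in *Hbb*-cKO. The markers did not share a direction, with 5 positive and 2 negative log2 fold changes, from -1.60 to 1.58, and a median of 0.29. Their mean log2 level overlapped between the groups. The part of red cell content in the lower globin level was not tested. Cartilage markers were abundant, with *Col2a1* at 26096, 29308 and 22280 CPM in WT and 11307, 38294 and 28358 CPM in *Hbb*-cKO. The 12 chondrocyte markers summed to 39259 to 50277 CPM in WT and to 20806, 67103 and 49065 CPM in *Hbb*-cKO replicates 1, 2 and 3, and 0 of the 12 passed the test. Skeletal muscle genes were also abundant, with 20 markers summing to 40421, 45321 and 65036 CPM in WT and to 46121, 36615 and 38739 CPM in *Hbb*-cKO. Transcripts of both *Xist* and Y-linked genes were counted in WT replicate 3 and in *Hbb*-cKO replicates 1 and 3, WT replicates 1 and 2 held *Xist* with 0 Y-linked counts, and *Hbb*-cKO replicate 2 held 6 counts of *Xist*. In bulk tissue, fewer cells of a type and less RNA per cell cannot be told apart.

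The extremes of many members lay in the same few libraries. *Hbb*-cKO replicate 1, lowest in 11 of the 12 chondrocyte markers, was also the lowest library for 14 of the 32 members. *Hbb*-cKO replicate 2, highest in all 12 chondrocyte markers, was the highest library for 13 of the 32, and 8 members had both of these extremes. WT replicate 3, highest in 17 of the 20 muscle markers, was the highest for 11 members. The share of all genes with an extreme in these libraries was not worked out, so whether these counts are particular to the members is not known. In mean log2 level relative to WT, the mitochondrial members stood at -0.44 in *Hbb*-cKO replicate 1 and at 0.34 in replicate 2. For the chondrocyte markers the corresponding values were -1.12 and 0.65. In the same libraries the glucose and lactate transporters stood at -0.44 and 0.16 and the collagen enzymes at -0.31 and 0.38. The secreted signals stood at -0.03 and 0.20 and the regulators at -0.10 and 0.20. Glycolysis entry and control stood at 0.33 and 0.03 and the glycolysis chain at -0.01 and 0.04. Not every role group thus followed the chondrocyte markers. With the chondrocyte marker level as a covariate, 0 members were called and their median was 0.03, and with the skeletal muscle marker level these were 0 and 0.05. The part of other cell types in the member values was not tested.

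**Figure D2:**
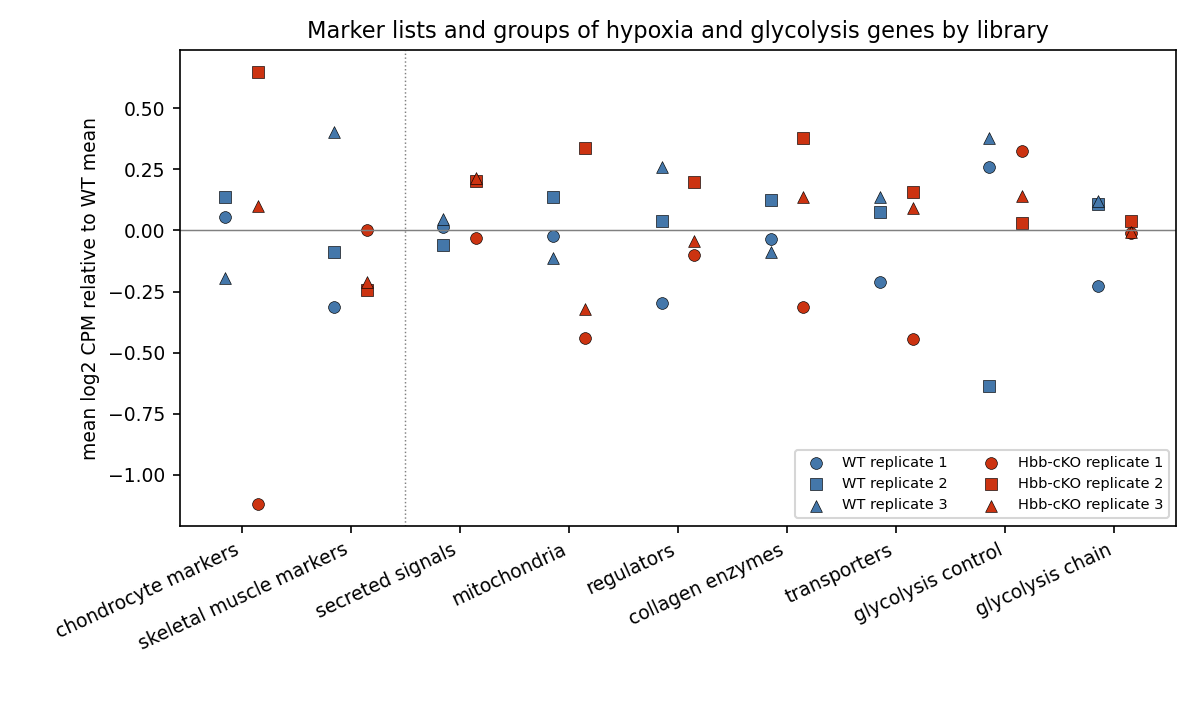
Mean log2 CPM relative to the WT mean (y axis) of the chondrocyte and skeletal muscle marker lists, left of the dotted line, and of the 7 role groups of members, right of it, with 1 point per library. *Hbb*-cKO replicate 1 (red circle) stands lowest for the chondrocyte markers at -1.12 and for the mitochondrial members at -0.44, and *Hbb*-cKO replicate 2 (red square) stands highest for both at 0.65 and 0.34. The glycolysis control group does not follow, at 0.33 in *Hbb*-cKO replicate 1 and 0.03 in replicate 2.

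Of the 4 secreted signals, *Adm* was the member that differed most and *Vegfa* the one that differed least. *Adm* encodes adrenomedullin, a vasodilator peptide induced by hypoxia. It stood at 4.37, 4.20 and 3.98 CPM in WT (4.18 ± 0.113 CPM, s.e.m., n = 3) and at 6.59, 6.87 and 6.65 CPM in *Hbb*-cKO (6.70 ± 0.083 CPM, n = 3). The groups did not overlap and the spread within each was small. The log2 fold change was 0.68 (SE 0.16, 95% interval 0.31 to 1.05), a 1.60-fold level, and edgeR gave an unadjusted p of 0.003 and an adjusted p of 0.228. The adjusted p was 0.099 in DESeq2, so that *Adm* was not called by either tool. These levels rest on 69 to 73 counts in WT and on 116 to 141 counts in *Hbb*-cKO.

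*Vegfa*, the main growth factor for vessels, was at 80.5, 71.3 and 82.7 CPM in WT and at 64.3, 89.2 and 81.3 CPM in *Hbb*-cKO. Its means of 78.2 ± 3.50 and 78.3 ± 7.34 CPM were nearly equal, and its log2 fold change of 0.0014 had a 95% interval of -0.33 to 0.33 (SE 0.14, edgeR adjusted p 0.999). *Angptl4*, a secreted inhibitor of lipoprotein lipase, ran from 49.0 to 54.7 CPM in WT and from 45.3 to 60.5 CPM in *Hbb*-cKO (log2 fold change 0.10). *Stc2*, a secreted glycoprotein, ran from 22.6 to 29.1 CPM in WT and from 15.7 to 26.9 CPM in *Hbb*-cKO (log2 fold change -0.20). Both overlapped between the groups.

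**Figure D3:**
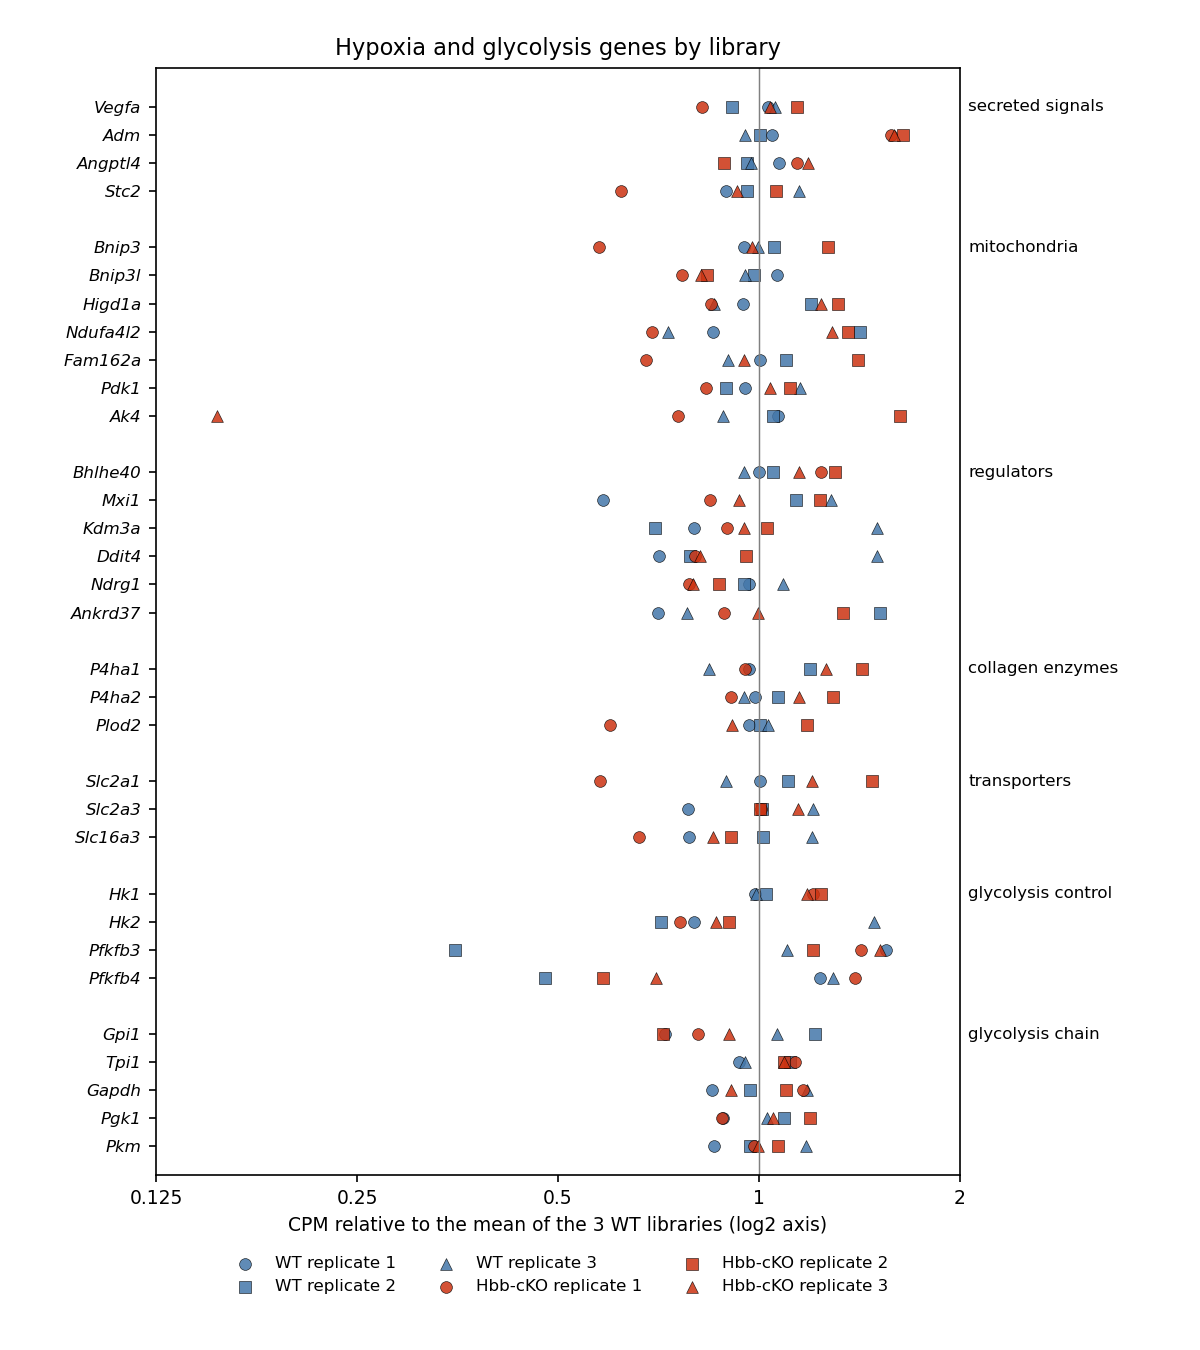
CPM of each member in each library divided by the mean of the 3 WT libraries (x axis, log2 scale), with genes grouped by role in rows and 1 point per library. The 3 *Hbb*-cKO points of *Adm* (6.59 to 6.87 CPM) lie together above all WT points, whereas the *Hbb*-cKO points of *Ak4*, *Bnip3* and *Slc2a1* lie on both sides of WT.

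Among the 7 members that act at mitochondria, *Bnip3l* alone separated the groups. BNIP3L, also named NIX, is a receptor on the outer mitochondrial membrane that brings on mitophagy and clears mitochondria from maturing red cells. *Bnip3l* was at 102.4, 94.3 and 91.6 CPM in WT and at 73.7, 80.4 and 78.6 CPM in *Hbb*-cKO, 80.7% of the WT mean. Every *Hbb*-cKO library was below every WT library. The log2 fold change was -0.31 (SE 0.10, 95% interval -0.55 to -0.07), with an unadjusted edgeR p of 0.017 and an adjusted p of 0.354. Its paralog *Bnip3*, a HIF target with the same role, behaved differently, at 83.0, 92.0 and 87.2 CPM in WT and at 50.3, 110.7 and 85.3 CPM in *Hbb*-cKO. The *Hbb*-cKO libraries of *Bnip3* thus lay on both sides of WT, and its log2 fold change was -0.09 (95% interval -0.69 to 0.51). The ratio of *Bnip3* to *Bnip3l* per kilobase was 1.38 to 1.66 in WT and 1.16 to 2.35 in *Hbb*-cKO.

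*Ndufa4l2*, a HIF target that lowers the activity of respiratory complex I, was the most abundant of this group per kilobase, at 122 ± 25.7 CPM per kilobase in WT. Its levels were 113, 189 and 97.2 CPM in WT and 92.1, 181 and 171 CPM in *Hbb*-cKO. The groups overlapped over almost their whole range (log2 fold change 0.15, SE 0.33, 95% interval -0.63 to 0.94, edgeR adjusted p 0.922). *Higd1a*, an assembly factor of respiratory complexes, gave 48.4 to 67.6 CPM in WT and 47.8 to 74.1 CPM in *Hbb*-cKO (log2 fold change 0.18). *Pdk1*, the kinase that shuts pyruvate out of the mitochondrion, gave 56.2 to 72.7 CPM in WT and 52.6 to 70.1 CPM in *Hbb*-cKO (log2 fold change -0.0075, 95% interval -0.36 to 0.34). *Hbb*-cKO replicate 1 was the lowest library for 6 of these 7 genes.

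*Ak4*, the mitochondrial adenylate kinase, was the exception, with its lowest value in *Hbb*-cKO replicate 3. It was at 27.1, 26.6 and 22.4 CPM in WT and at 19.2, 41.2 and 3.92 CPM in *Hbb*-cKO, where the last value is 83 counts. The *Hbb*-cKO libraries differed 10.5-fold among themselves, the widest range of any member over the 6 libraries. The log2 fold change of -0.24 had a 95% interval of -2.03 to 1.54, and without *Hbb*-cKO replicate 3 it was 0.26.

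The 6 regulators of transcription and growth held 1 gene that was higher and 1 that was lower in every *Hbb*-cKO library. Groups did not overlap upward in 3 of all 32 members and downward in 2, beside 8.7% and 8.96% of all genes tested, and these were the same 5 genes as those with an unadjusted p under 0.05. *Bhlhe40*, a basic helix-loop-helix repressor of clock and differentiation genes, was at 76.7, 80.4 and 72.9 CPM in WT and at 94.8, 99.5 and 88.1 CPM in *Hbb*-cKO. Its level was 1.23-fold (log2 fold change 0.30, SE 0.10, 95% interval 0.06 to 0.54; edgeR unadjusted p 0.022, adjusted p 0.386). *Ndrg1*, a stress-responsive protein of differentiating cells, was at 49.5, 48.6 and 55.6 CPM in WT and at 40.2, 44.6 and 40.8 CPM in *Hbb*-cKO. Its log2 fold change was -0.29 (SE 0.11, 95% interval -0.54 to -0.04), with an edgeR unadjusted p of 0.028 and an adjusted p of 0.411.

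The other regulators took their extremes among the WT libraries. *Kdm3a*, a histone H3K9 demethylase, was at 26.5, 23.2 and 49.9 CPM in WT and at 29.8, 34.1 and 31.5 CPM in *Hbb*-cKO. *Ddit4*, which encodes the mTORC1 inhibitor REDD1, was at 30.4, 33.7 and 64.4 CPM in WT and at 34.4, 40.9 and 35.0 CPM in *Hbb*-cKO. In both, WT replicate 3, the library richest in muscle transcripts, was the highest and the *Hbb*-cKO libraries were close together. The log2 fold changes were -0.06 for *Kdm3a* and -0.22 for *Ddit4*, and they were 0.36 and 0.20 without WT replicate 3. *Mxi1*, an antagonist of MYC, ran from 18.0 to 39.6 CPM in WT and from 26.1 to 38.1 CPM in *Hbb*-cKO (log2 fold change 0.0049). *Ankrd37*, an ankyrin-repeat protein, was low, at 2.04 to 4.38 CPM in WT and 2.56 to 3.86 CPM in *Hbb*-cKO (log2 fold change 0.10).

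The 3 enzymes that modify collagen were among the more abundant members. *P4ha1* and *P4ha2* encode the catalytic subunits of collagen prolyl 4-hydroxylase, which needs oxygen to stabilize the triple helix, and *Plod2* encodes the lysyl hydroxylase of collagen telopeptides. *P4ha1* was at 261, 323 and 227 CPM in WT and at 257, 385 and 341 CPM in *Hbb*-cKO. Its level was 1.21-fold (log2 fold change 0.28, 95% interval -0.16 to 0.72; edgeR unadjusted p 0.184, adjusted p 0.677), a difference within the spread of the libraries. *P4ha2* was at 150, 162 and 144 CPM in WT and at 138, 196 and 174 CPM in *Hbb*-cKO (log2 fold change 0.16). *Plod2* was at 265, 275 and 283 CPM in WT and at 164, 324 and 250 CPM in *Hbb*-cKO (log2 fold change -0.16). All 3 were highest in *Hbb*-cKO replicate 2, and the WT values of *Plod2* lay within the *Hbb*-cKO range.

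The glucose transporters kept their order in every library. *Slc2a1*, which encodes GLUT1, the main glucose importer of chondrocytes, was at 52.1, 57.4 and 46.3 CPM in WT and at 30.0, 76.7 and 62.4 CPM in *Hbb*-cKO. *Hbb*-cKO replicate 1 was below and the other 2 above all WT libraries, and the log2 fold change was 0.12 (95% interval -0.63 to 0.87). *Slc2a3*, which encodes the high-affinity transporter GLUT3, was at 4.43 to 6.81 CPM in WT and 5.66 to 6.46 CPM in *Hbb*-cKO (log2 fold change 0.07). Per kilobase, *Slc2a1* exceeded *Slc2a3* by 14.0- to 24.3-fold in WT and by 10.9- to 28.0-fold in *Hbb*-cKO. *Slc16a3*, which encodes the lactate exporter MCT4, was at 164, 212 and 251 CPM in WT and at 138, 190 and 179 CPM in *Hbb*-cKO. Its log2 fold change of -0.31 (95% interval -0.74 to 0.12; edgeR unadjusted p 0.140, adjusted p 0.626) was within the spread of the libraries, which overlapped.

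At the entry of glycolysis, the hexokinases differed in how steady they were. Hexokinases trap glucose in the cell as glucose 6-phosphate, HK1 constitutively and HK2 under the control of insulin and hypoxia. *Hk1* was at 50.7, 52.5 and 50.8 CPM in WT and at 61.8, 63.6 and 60.5 CPM in *Hbb*-cKO, without overlap and with a narrow spread in both groups. Its level was 1.21-fold (log2 fold change 0.27, SE 0.10, 95% interval 0.05 to 0.49; edgeR unadjusted p 0.022, adjusted p 0.387). *Hk2* was at 41.5, 37.1 and 77.2 CPM in WT and at 39.5, 46.9 and 44.7 CPM in *Hbb*-cKO (log2 fold change -0.25), and WT replicate 3 stood above the other 5 libraries. Their ratio per kilobase was 0.854, 0.991 and 0.460 in WT and 1.10, 0.948 and 0.946 in *Hbb*-cKO.

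The bifunctional enzymes that set fructose 2,6-bisphosphate, the activator of phosphofructokinase, varied most among the WT libraries. *Pfkfb3* was at 36.8, 8.33 and 26.1 CPM in WT and at 33.7, 28.6 and 36.0 CPM in *Hbb*-cKO. Its log2 fold change was 0.46 (95% interval -0.69 to 1.62), and without WT replicate 2, the low library, it was 0.07. *Pfkfb4* was also lowest in WT replicate 2, at 19.8, 7.66 and 20.7 CPM in WT and at 22.3, 9.37 and 11.2 CPM in *Hbb*-cKO (log2 fold change -0.17).

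The ratios of 6 related pairs were compared within libraries, where differences in library size cancel. The largest difference was in *Pfkfb3* to *Pfkfb4*, with ratios of 1.20, 0.701 and 0.816 in WT and 0.973, 1.97 and 2.07 in *Hbb*-cKO, a log2 difference of 0.84 (95% interval -0.32 to 2.01; exact two-sided permutation test, p = 0.2). The log2 differences were 0.45 for *Hk1* to *Hk2*, 0.13 for *P4ha1* to *P4ha2*, 0.15 for *Bnip3* to *Bnip3l*, -0.07 for *Slc2a1* to *Slc2a3* and -0.04 for *Pdk1* to *Pkm*. Exact permutation p-values of these were 0.3 to 0.9, and adjusted over the 6 pairs they were 0.8 to 0.9 for every pair. With 3 libraries against 3 the smallest two-sided p is 0.1, so no pair could reach the threshold.

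**Figure D4:**
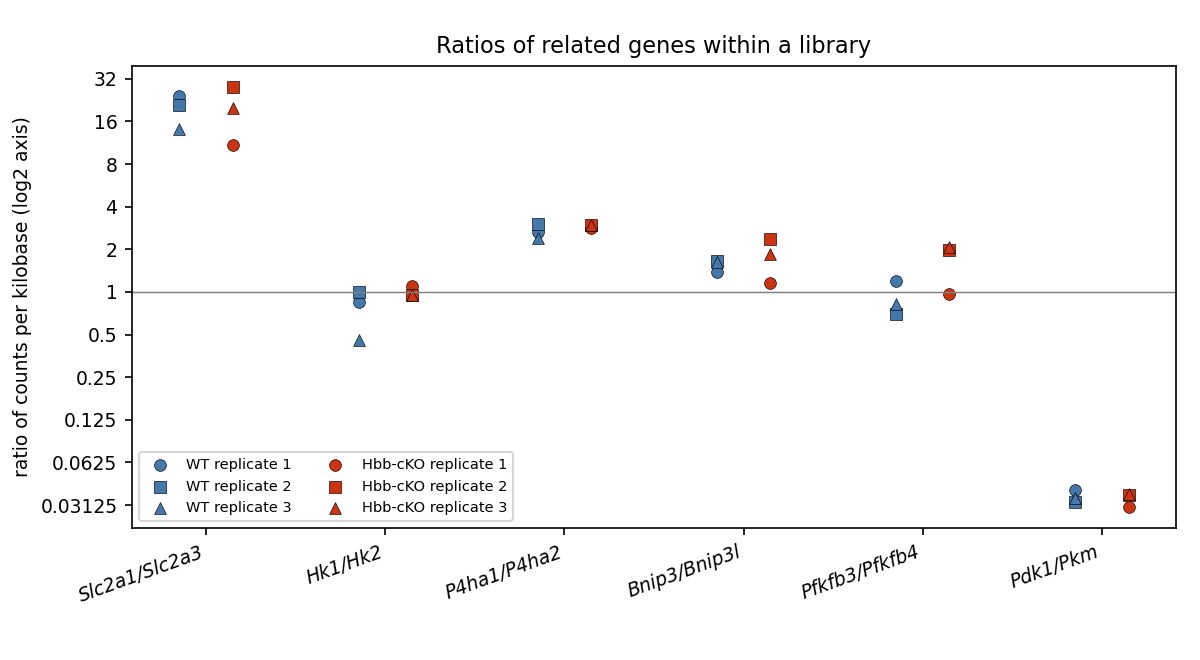
Ratio of counts per kilobase of 2 related genes within each library (y axis, log2 scale) for 6 pairs, with WT in blue and *Hbb*-cKO in red and 1 point per library. The WT and *Hbb*-cKO points overlap for every pair, and the widest gap between group means is in *Pfkfb3*/*Pfkfb4*, with ratios of 0.701 to 1.20 in WT and 0.973 to 2.07 in *Hbb*-cKO.

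By counts under their own names, the chain from glucose 6-phosphate to pyruvate held the 2 most abundant members per kilobase. Per kilobase in WT, the order by these counts was *Pkm* (227 ± 21.3 CPM per kilobase, n = 3), *Tpi1* (218 ± 12.6), *Pgk1* (99.95 ± 6.15), *Gpi1* (70.0 ± 10.2) and *Gapdh* (8.24 ± 0.789). Sums with pseudogenes, given below, raise *Gapdh* and *Pgk1* most, so the order depends on how reads were split. *Pkm* and *Tpi1* did not differ beyond their spread. *Pkm*, the pyruvate kinase that closes the pathway, was at 970, 1101 and 1334 CPM in WT and at 1115, 1214 and 1133 CPM in *Hbb*-cKO (log2 fold change 0.02, SE 0.15, 95% interval -0.33 to 0.38, edgeR adjusted p 0.979). *Tpi1*, triosephosphate isomerase, was at 560, 669 and 572 CPM in WT and at 679, 655 and 654 CPM in *Hbb*-cKO. It overlapped only through WT replicate 2 (log2 fold change 0.14, 95% interval -0.15 to 0.43).

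*Gpi1*, glucose 6-phosphate isomerase, was at 326, 547 and 481 CPM in WT and at 366, 324 and 407 CPM in *Hbb*-cKO. Its log2 fold change of -0.30 (95% interval -0.77 to 0.16) was the lowest of the chain, and the groups overlapped. *Pgk1*, phosphoglycerate kinase, was at 198, 244 and 231 CPM in WT and at 197, 267 and 235 CPM in *Hbb*-cKO (log2 fold change 0.06, 95% interval -0.29 to 0.40). The chain thus showed no common shift, with a median log2 fold change of 0.06 over its 5 genes.

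*Gapdh*, glyceraldehyde 3-phosphate dehydrogenase, was listed far below its neighbours in the pathway, at 29.0, 33.1 and 40.2 CPM in WT and at 39.7, 37.3 and 31.0 CPM in *Hbb*-cKO. Of the 50-base windows of its transcript, 82.5% also occurred in transcripts of other genes, 222 in number, of which 213 were annotated pseudogenes. Summed with these pseudogenes, it reached 2026, 2357 and 2753 CPM in WT (2379 ± 210 CPM) and 2093, 1927 and 1838 CPM in *Hbb*-cKO (1953 ± 74.9 CPM). The counts under its own name were 1.40% to 1.94% of the sum. The direction also depended on the choice, with a log2 fold change of 0.08 for its own counts and of -0.28 for the sum (SE 0.16, edgeR adjusted p 0.590). How the authors' counting split reads between identical copies was not stated, so the level of *Gapdh* is uncertain.

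**Figure D5:**
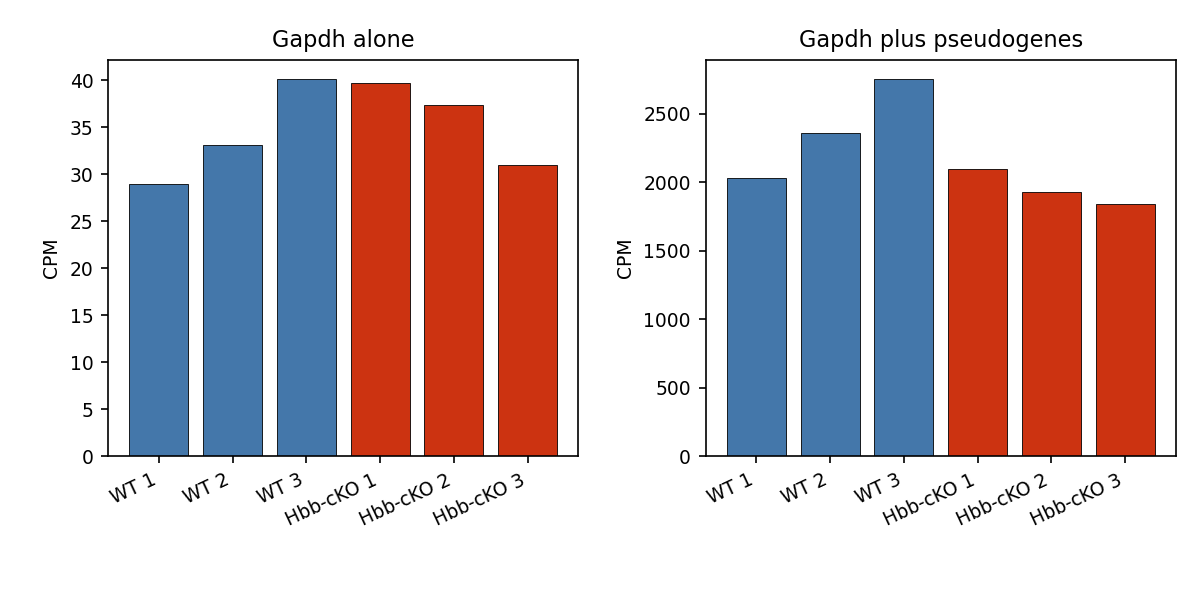
CPM of *Gapdh* in each library (y axes, starting at 0) from the counts under its own name (left) and after adding its pseudogenes (right), with WT in blue and *Hbb*-cKO in red. The left bars lie between 29.0 and 40.2 CPM and the right bars between 1838 and 2753 CPM, and the order of the libraries differs between the panels.

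Shared sequence reached other members to a lesser extent. *Pgk1* shared 68.0% of its windows and its own counts were 46.3% to 52.4% of the sum with its pseudogenes, and the log2 fold change of the sum was 0.09. *Bnip3* shared 62.4% of its windows but kept over 93% of the summed counts. *Bnip3l* shared 23.4% of its windows with 1 pseudogene, and its sum kept the lower level, with a log2 fold change of -0.30 and an unadjusted edgeR p of 0.023. Some windows of *Ankrd37*, *Bhlhe40*, *Bnip3*, *Fam162a*, *Hk1*, *Ndrg1* and others occurred, in either orientation, in genes not annotated as pseudogenes. For *Ankrd37* the genes sharing windows held 530 to 685 counts a library, beside 34 to 77 of its own. For *Bhlhe40*, *Hk1* and *Ndrg1* they held at most 27 counts a library. Without a stated strand setting, reads of the shared stretches cannot be told apart.

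The genes that sense oxygen were measured beside their targets. Of 10 HIF subunits and sensors, 10 were tested and 0 were called by edgeR or DESeq2. *Hif1a*, the α subunit that drives most glycolytic targets, was at 133, 126 and 109 CPM in WT and at 106, 159 and 140 CPM in *Hbb*-cKO (log2 fold change 0.13, 95% interval -0.25 to 0.52). *Epas1*, which encodes HIF-2α, was at 96.5, 76.6 and 90.1 CPM in WT and at 97.1, 97.8 and 92.0 CPM in *Hbb*-cKO (log2 fold change 0.12). *Egln3*, a prolyl hydroxylase that is itself a HIF target, was at 14.6, 12.8 and 34.4 CPM in WT and at 8.58, 12.3 and 13.5 CPM in *Hbb*-cKO, with a log2 fold change of -0.85 and an edgeR adjusted p of 0.538. *Hif3a*, chosen after its values were seen as the 1 gene of the list with an unadjusted p under 0.05, was at 9.46, 6.14 and 39.7 CPM in WT and at 5.11, 4.16 and 5.14 CPM in *Hbb*-cKO (log2 fold change -1.94, edgeR unadjusted p 0.034, adjusted p 0.443). Both *Egln3* and *Hif3a* were highest in WT replicate 3. *Egln1* and *Vhl*, the main sensor and the ligase that destroys hydroxylated HIF, overlapped between the groups.

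Of 30 other HIF targets, 29 were tested, 0 were called by edgeR or DESeq2, and 1 reached an unadjusted p under 0.05. This was *Fgf11*, a fibroblast growth factor homolog that is not secreted, chosen after its values were seen. It was at 7.13, 5.59 and 7.50 CPM in WT and at 12.6, 8.97 and 12.5 CPM in *Hbb*-cKO (log2 fold change 0.75, 95% interval 0.29 to 1.21; edgeR adjusted p 0.280, DESeq2 adjusted p 0.080). *Car9*, a carbonic anhydrase widely used as a hypoxia marker, was at 16.8, 18.1 and 16.5 CPM in WT and at 12.7, 18.9 and 22.7 CPM in *Hbb*-cKO, with no separation (log2 fold change 0.08). *Car12*, a related membrane enzyme, was at 81.8, 52.9 and 54.7 CPM in WT and at 18.2, 51.8 and 40.0 CPM in *Hbb*-cKO. Every *Hbb*-cKO library of *Car12* was below WT, but its log2 fold change of -0.78 had a 95% interval of -1.69 to 0.13. *Epo* was not tested, with at most 0.115 CPM in any library, and *Hilpda* and *Ero1l* overlapped between the groups.

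Of 27 other genes of glycolysis and its control, 25 were tested and 0 were called by edgeR or DESeq2, and 3 reached an unadjusted p under 0.05. *Ldha*, the lactate dehydrogenase subunit induced by HIF, was at 667, 860 and 772 CPM in WT and at 683, 820 and 754 CPM in *Hbb*-cKO (log2 fold change -0.03, 95% interval -0.37 to 0.31). *Ldhb*, the subunit that favours lactate oxidation, was at 31.2, 25.2 and 26.2 CPM in WT and at 37.3, 50.7 and 34.7 CPM in *Hbb*-cKO (log2 fold change 0.57, edgeR unadjusted p 0.010, adjusted p 0.316). The groups did not overlap for *Ldhb*, whereas those of *Ldha* did. The other 2 genes, chosen after their values were seen, were *Eno2*, an enolase of neurons (log2 fold change -0.54, adjusted p 0.291), and *Bpgm*, the red cell enzyme that makes 2,3-bisphosphoglycerate (log2 fold change -0.58, adjusted p 0.470). *Bpgm* was at 140, 90.3 and 70.0 CPM in WT and at 61.3, 72.7 and 66.4 CPM in *Hbb*-cKO, highest in WT replicate 1. That library also had the highest summed CPM of the erythroid markers (524 CPM, beside 125 to 312 CPM in the other libraries). The mean log2 level of these markers relative to WT was 0.71, -0.32 and -0.38 in WT and 0.69, -1.18 and 0.51 in *Hbb*-cKO. The part of red cells in the level of *Bpgm* was not tested.

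Enzymes on either side of the members in the pathway gave similar values. *Eno1*, the ubiquitous enolase, was at 299, 410 and 259 CPM in WT and at 322, 404 and 380 CPM in *Hbb*-cKO (log2 fold change 0.19). *Pgam1*, a phosphoglycerate mutase, was at 83.0, 107 and 76.2 CPM in WT and at 87.0, 133 and 117 CPM in *Hbb*-cKO (log2 fold change 0.34, 95% interval -0.10 to 0.78). *Slc16a1*, which encodes the lactate transporter MCT1, had a log2 fold change of -0.10. The groups overlapped in all of these, as they did in *Pfkl*, *Pfkm*, *Pfkp*, *Aldoa*, *Pdk4* and the muscle-rich *Eno3*, *Pgam2* and *Slc2a4*. *Pdk4* was at 42.0, 23.8 and 111 CPM in WT and at 28.0, 39.4 and 38.2 CPM in *Hbb*-cKO, again highest in WT replicate 3.

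Other cell types also varied between the libraries. Neutrophil markers had a median log2 fold change of 1.49 over 12 tested genes, with 8 at an unadjusted p under 0.05 upward, 0 called by edgeR after adjustment and 2 called upward by DESeq2, and their mean log2 level was highest in *Hbb*-cKO replicates 1 and 3. Their summed level was 433 to 563 CPM in WT and 248 to 799 CPM in *Hbb*-cKO. The summed level of 10 endothelial markers was 684 to 845 CPM in WT and 865 to 1000.5 CPM in *Hbb*-cKO, without overlap, and 10 of 10 had a positive log2 fold change, 3 of them at an unadjusted p under 0.05. The 7 osteoblast markers summed to 20890 to 23770 CPM in WT and to 37960, 24693 and 33243 CPM in *Hbb*-cKO, also without overlap, with a median log2 fold change of 0.20. Their log2 fold changes ran from -0.78 to 0.54. Their mean log2 level relative to WT overlapped, at -0.12, -0.23 and 0.35 in WT and 0.62, -0.64 and -0.04 in *Hbb*-cKO. Neither edgeR nor DESeq2 called any of them, and 1 was higher at an unadjusted p under 0.05. The 6 hypertrophic chondrocyte markers overlapped, at 2246 to 2698 CPM in WT and 2159 to 2825 CPM in *Hbb*-cKO. The part of bone cells in the member values was not tested. *Adm* is made by endothelium as well as by other cells, and the part of vessels in its higher level was not tested. Skeletal muscle markers had a median log2 fold change of -0.32 over 20 genes. With the muscle marker level as a covariate, *Adm*, *Bhlhe40*, *Hk1* and *Bnip3l* were again at an unadjusted p under 0.05 and 0 members were called.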

How the data were processed

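Poly(A) RNA of knee joint cartilaginous tissue from 3 WT and 3 *Hbb*-cKO mouse samples (postnatal day 6) was analysed. The authors deposited whole-number counts per gene, without normalization. Tools listed in the submitters' processing notes are HISAT2 2.1.0 and StringTie, after CASAVA 1.8 and fastp 0.19.5, as well as edgeR. No source used here gives the build, the strand or the counting rule. Gene positions of all 32 members equalled GENCODE M21 (GRCm38), from which merged-exon lengths were taken. Samples were grouped by the labelled genotype. The study calls its sequenced samples biologically independent, but how many mice each holds is not stated, and p-values measure the spread between these samples.

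The counts were tested in edgeR 4.0.16 (R 4.3.3; TMM, minimum count 10 and total 15, robust quasi-likelihood, Benjamini-Hochberg over 17175 genes, threshold 0.05). CPM use TMM-scaled library sizes. DESeq2 1.42.0, other scalings and filters, a replicate block and leaving out each library were alternatives. Sums with pseudogenes and marker covariates were added after seeing the data. In a simulation of *Hbb*-cKO against WT over 17175 genes, the edgeR test found 4 of 50 genes at a true fold of 1.5, 23 of 50 at 2 and 45 of 50 at 4, and 12 of its 132 calls were false. DESeq2 found 6, 31 and 48 of 50 at the same folds, and 44 of its 177 calls were false. Genes called by DESeq2 alone are therefore less certain. The members and gene lists were chosen with earlier results of these data known. The genes named are all 32 members and, by a written rule, selected HIF and glycolysis genes, the targeted globins and tissue markers; any others are said to be chosen after their values were seen. Full statistics were given for the 5 members with the smallest p and for the most abundant of each role.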

Additional observations from a re-analysis of the deposited data

How the results depend on the processing

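The alternatives were DESeq2, RLE factors, TMM without globin or muscle genes, 2 other filters and a replicate block. An adjusted p of 0.1 in edgeR, sums with pseudogenes, both marker covariates and leaving out each library were also tried. Under every alternative, 0 of the 32 members passed the threshold. The threshold of 0.1 was not applied to DESeq2, where *Adm* had an adjusted p of 0.099. The number of genes called in all did move, from 18 to 249 in DESeq2, 60 without a filter, 41 at an adjusted p of 0.1, 4 with the replicate block, 6 with the chondrocyte covariate and 29 with the muscle covariate. Without 1 library it ran from 1 to 39, at 1 without WT replicate 1, 2 without *Hbb*-cKO replicate 3, 6 without *Hbb*-cKO replicate 2 and 39 without WT replicate 3. The cause of these moves was not tested. The median over members ran from -0.089 to 0.12. Over 14 alternatives, 410 of 448 values of the members kept their sign, and 38, in 18 members, did not. *Adm* stayed between 0.65 and 0.72, with adjusted p-values of 0.099 to 0.673, and the other 4 members at an unadjusted p under 0.05 also kept their sign. Which members were under 0.05 before adjustment did change. With the replicate block this was *Adm* alone. *Adm* was joined by *Slc16a3* and *Gpi1* without WT replicate 1, by *Slc2a1* without *Hbb*-cKO replicate 1, by *Bnip3l* and *Ndrg1* without *Hbb*-cKO replicate 2 and by *Bhlhe40* without *Hbb*-cKO replicate 3, while without WT replicate 3 *Kdm3a* took the place of *Ndrg1*, and with the muscle covariate *Ndrg1* dropped out.

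Without 1 library, the log2 fold changes that turned ran as follows over the libraries left out: *Ak4* -1.14 to 0.26, *Ankrd37* -0.086 to 0.55, *Bnip3* -0.36 to 0.17, *Ddit4* -0.41 to 0.20, *Fam162a* -0.30 to 0.24, *Gapdh* -0.019 to 0.21, *Hk2* -0.42 to 0.15, *Kdm3a* -0.25 to 0.36, *Mxi1* -0.26 to 0.22, *Ndufa4l2* -0.027 to 0.51, *Pdk1* -0.094 to 0.11, *Pfkfb4* -0.63 to 0.064, *Pgk1* -0.051 to 0.17, *Pkm* -0.070 to 0.16, *Plod2* -0.41 to 0.071, *Slc2a1* -0.17 to 0.43, *Slc2a3* -0.070 to 0.23, *Vegfa* -0.10 to 0.13. The same held for *Car9* (-0.11 to 0.29), *Ldha* (-0.11 to 0.079) and *Slc16a1* (-0.20 to 0.039), and for the log2 ratios *Bnip3*/*Bnip3l* (-0.079 to 0.43), *Pdk1*/*Pkm* (-0.11 to 0.053) and *Slc2a1*/*Slc2a3* (-0.38 to 0.30). Values near 0 also turned for *Pdk1* (0.00012 in DESeq2, 5.6e-05 with RLE factors, 0.0074 without a filter) and *Vegfa* (-0.00093 with a filter of 1 CPM in 3 libraries). The replicate block gave -0.0089 for *Vegfa*, 0.018 for *Kdm3a* and -0.041 for *Fam162a*, and sums with pseudogenes gave -0.28 for *Gapdh*. The log2 ratio *Pdk1*/*Pkm* was 0.083 by medians. *Hbb-bs* and *Hbb-bt* passed the threshold in DESeq2 and without WT replicate 3, with edgeR adjusted p-values of 0.034 and 0.033. Same-numbered libraries did not deviate together (correlations of -0.03, -0.11 and -0.03 between WT and *Hbb*-cKO), so the numbers were not taken to pair the libraries.

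With 3 libraries a group, differences of 1.5-fold were mostly missed in the simulation. The edgeR test found 4 of 50 such genes, drawn at random from all genes tested, and DESeq2 found 6. The recovery for the members alone was not simulated. The lowest members, *Adm*, *Ankrd37* and *Slc2a3*, rest on 34 to 141 counts a library, and the interval of *Ak4* spans more than 2-fold in both directions. A level under its own name says little for *Gapdh*. Intervals cover the spread between libraries.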
